A study of Homo sapiens with 24 samples.

Results

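Non-collagen matrix glycoproteins and proteoglycans are the secreted proteins, other than collagen, that build the extracellular matrix and tell cells how they are anchored. They were chosen as 9 named genes among the 21660 gene rows kept from a table of RNA levels: FN1, SPARC, TGFBI, MATN3, THBS1, TNC, BGN, VCAN and FBN1. All 9 were found in the table. Polyadenylated RNA was sequenced from 6 lines grown from human liver tumours: HepG2, Hep3b, Huh7, Huh1, SK-HEP1 and HLE. From each line came 4 libraries, 1 per group. In 6 siSFPQ + TGF-beta libraries, SFPQ was knocked down by siRNA and the cells received TGF-beta at 2 ng/ml for 24 hours. In 6 siSFPQ libraries, SFPQ was knocked down and no TGF-beta was given. In 6 siCTL + TGF-beta libraries, cells had the control siRNA and the same TGF-beta treatment, and in 6 siCTL libraries the control siRNA alone. All groups were grown in medium with fetal bovine serum. The labels call the siCTL genotype wild type, class all lines as hepatocellular carcinoma (HCC) and name no other siRNA against SFPQ, and off-target effects of this siRNA cannot be told apart from lowered SFPQ. The lines served as the replicates, and no line had a repeat library, so every p-value measures the spread between lines.

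Matrix glycoproteins are made by secretory cells, folded in the endoplasmic reticulum and assembled outside the cell around collagen. Fibronectin forms fibrils that integrins pull on, matricellular proteins such as SPARC, thrombospondin and tenascin adjust adhesion, and proteoglycans carry sulphated sugar chains. TGF-beta, a growth factor that signals through SMAD proteins, is a known inducer of many of these genes in the fibrotic liver, where stellate cells are the main source, and hepatocytes secrete plasma fibronectin. SFPQ is a nuclear RNA-binding protein of paraspeckles. The series title concerns SMAD4 held in SFPQ condensates, so the comparisons ask how these genes respond to TGF-beta with and without SFPQ.

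SFPQ itself was at 26.5 to 54.6 FPKM (FPKM divide the fragments of a gene by its transcript length and by library size) in siSFPQ + TGF-beta libraries and at 23.5 to 51.4 FPKM in siSFPQ libraries, against 84.7 to 248 FPKM in siCTL + TGF-beta libraries and 90.4 to 247 FPKM in siCTL libraries. In each line both siSFPQ libraries lay below both siCTL libraries. The extent of the knockdown differed between lines. With TGF-beta, the log2 change of SFPQ was -3.18 in HLE, -2.57 in SK-HEP1 and -2.10 in Hep3b. It was -1.69 in Huh7, -1.17 in HepG2 and -1.14 in Huh1. Without TGF-beta, it ran from -3.34 in HLE to -1.13 in HepG2. The part of this difference in the results was not tested. Depth, judged from the step size of low FPKM values and set against the median library, ran from 0.351 times in Huh7 siSFPQ + TGF-beta to 1.72 times in Hep3b siSFPQ + TGF-beta. The sum of 8 hepatocyte markers was 12830 to 18501 FPKM in Huh7, 8475 to 12419 in HepG2 and 688 to 1120 in Huh1. It was 25.1 to 109 FPKM in HLE, 12.2 to 22.7 in Hep3b and 11.8 to 14.1 in SK-HEP1, so the libraries labelled Hep3b lay near SK-HEP1 on this sum. In them ALB was at 0.514 to 0.951 FPKM, HNF4A at 0.368 to 0.790 and AFP at 7.89 to 13.3. The line is named here as labelled, and its identity was not tested. TTR was listed at 0 in HLE and SK-HEP1, as were the stellate cell markers DCN, LUM and DES in SK-HEP1. Of the 8 stellate cell and fibroblast markers, 2 reached 1 FPKM in SK-HEP1, THY1 at 16.6 to 22.7 FPKM and PDGFRB at 14.9 to 39.5 FPKM. The 8 summed to 37.5 to 56.8 FPKM there. SK-HEP1 has been described elsewhere as endothelial in origin, but 0 of 7 endothelial markers reached 1 FPKM in it, with a summed level of 0.224 to 0.722 FPKM. The 8 stellate cell and fibroblast markers summed to 36.1 to 73.3 FPKM in siSFPQ + TGF-beta, 13.9 to 63.0 in siSFPQ, 24.9 to 81.0 in siCTL + TGF-beta and 23.1 to 78.6 FPKM in siCTL libraries, ranges that overlap. Within lines, their sum was higher with TGF-beta in 5 of 6 lines of siSFPQ cells, and higher in siSFPQ + TGF-beta than in siCTL + TGF-beta libraries in 2 of 6 lines. Of the 8, only 2, PDGFRB and ACTA2, were tested with TGF-beta in siSFPQ cells, where ACTA2 was not called (-0.07, limma adjusted p = 0.705). With knockdown under TGF-beta 3 were tested. PDGFRB, a growth factor receptor of stellate cells and pericytes, was the marker of this list called higher in both comparisons. It was at 9.26 FPKM with TGF-beta, against 1.54 without, in siSFPQ Huh7 cells and at 13.6 against 3.35 in siSFPQ Hep3b cells, with a log2 change of 1.25 (SE 0.22, limma adjusted p = 0.0340) and 6 of 6 lines higher. With knockdown under TGF-beta PDGFRB was at 39.5 against 19.3 FPKM in SK-HEP1 and at 15.3 against 7.95 in HepG2. Its log2 change was 1.05 (SE 0.16, limma adjusted p = 0.00419), with 6 of 6 lines higher. ACTA2 (-0.42, limma adjusted p = 0.0488) and RGS5 (-0.32, limma adjusted p = 0.0412) of the same list fell. With knockdown alone ACTA2 was called lower (-0.37, limma adjusted p = 0.0468), with 6 of 6 lines lower. PDGFRB was not called there (0.32, limma adjusted p = 0.179), and the sum of the 8 was lower in 5 of 6 lines. The sum of 5 immune markers was lower with TGF-beta in 6 of 6 lines of siSFPQ cells and in 4 of 6 lines of siCTL cells. Only 2 of the 5, CD68 and LYZ, were tested. Neither passed with TGF-beta in siSFPQ cells (limma adjusted p = 0.0728 and 0.522) or siCTL cells (limma adjusted p = 0.298 and 0.135). LYZ was lower in 3 of 6 lines of siSFPQ cells. CD68 was called higher with knockdown alone (0.36, limma adjusted p = 0.0383), where 21.7% of all genes were called. LYZ was not called there (-0.14, limma adjusted p = 0.269) and was lower in 5 of 6 lines. The sum of the 5 was higher in 3 lines and lower in 3. The part of these markers in the results was not tested.

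The promoters of 5 members are shown: those of SPARC and MATN3, which passed the TGF-beta test after knockdown, of FN1 and TGFBI, whose levels moved together within lines, and of TNC, which in HLE and SK-HEP1 was lower with TGF-beta. Each is the 250 bases before the start of the gene, from RefSeq on GRCh38.p14, which is not the hg19 build of the deposited table. All 9 members matched an entry. Capitals mark matches on either strand to CAGACA (a SMAD box), TGANTCA (AP-1), TGACGTCA (a cyclic AMP response element, CRE), GGGCGG (a GC box) and GGAATG (a TEAD motif). SPARC lies at chr5:151686916-151687165 on the minus strand, MATN3 at chr2:20012669-20012918 on the minus strand, FN1 at chr2:215436069-215436318 on the minus strand, TGFBI at chr5:136028738-136028987 on the plus strand and TNC at chr9:115118158-115118407 on the minus strand.
SPARC: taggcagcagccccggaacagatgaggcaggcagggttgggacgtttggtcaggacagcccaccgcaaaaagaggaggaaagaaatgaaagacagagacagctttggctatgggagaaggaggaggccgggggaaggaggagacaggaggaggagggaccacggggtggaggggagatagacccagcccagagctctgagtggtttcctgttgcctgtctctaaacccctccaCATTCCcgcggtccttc
MATN3: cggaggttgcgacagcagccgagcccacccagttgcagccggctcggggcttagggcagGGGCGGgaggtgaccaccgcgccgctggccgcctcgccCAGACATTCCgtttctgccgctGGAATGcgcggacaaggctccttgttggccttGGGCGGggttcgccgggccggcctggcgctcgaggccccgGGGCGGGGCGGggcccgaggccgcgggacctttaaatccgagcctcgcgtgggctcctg
FN1: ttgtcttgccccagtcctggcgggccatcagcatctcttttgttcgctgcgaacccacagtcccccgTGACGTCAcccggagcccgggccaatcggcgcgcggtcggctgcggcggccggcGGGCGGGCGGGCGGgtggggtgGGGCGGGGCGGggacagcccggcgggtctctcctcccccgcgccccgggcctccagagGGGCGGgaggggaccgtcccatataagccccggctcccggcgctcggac
TGFBI: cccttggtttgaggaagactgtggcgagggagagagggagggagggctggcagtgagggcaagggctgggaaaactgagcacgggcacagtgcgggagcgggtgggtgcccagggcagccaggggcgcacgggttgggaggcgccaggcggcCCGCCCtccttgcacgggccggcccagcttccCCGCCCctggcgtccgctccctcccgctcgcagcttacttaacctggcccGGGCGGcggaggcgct
TNC: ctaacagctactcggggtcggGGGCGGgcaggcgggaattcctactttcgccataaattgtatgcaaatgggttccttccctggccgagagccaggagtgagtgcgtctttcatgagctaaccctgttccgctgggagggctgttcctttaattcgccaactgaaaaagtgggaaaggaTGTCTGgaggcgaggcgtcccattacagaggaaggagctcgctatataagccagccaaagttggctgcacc

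Of the 9 members, 2 held CAGACA in this window, MATN3 at -153 and TNC at -71 on the other strand, where 13.6% of 34788 promoters of the same length held it. Positions count back from -1, the last base before the start, to the upstream end of the match. The match of MATN3 overlaps a TEAD match that begins at -149 on the other strand. TGANTCA was in 0 members and in 6.59% of promoters. The 8-base CRE was in FN1 alone, at -183, and in 1.64% of promoters. GGGCGG was in 7 members, all but SPARC and FBN1, and in 42.6% of promoters, and GGAATG was in 4 members (SPARC, MATN3, THBS1 and FBN1) and in 11.9%. The GC content of the window was 76.4% in FN1, 74% in MATN3, 72.8% in TGFBI, 59.2% in SPARC and 54.8% in TNC, against a median of 58% over all promoters. A match is a description of letters and not a site, and a missing match says only that these letters were not in this window.

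Levels differed widely between lines. FN1, fibronectin, averaged 2396 FPKM over the 4 libraries of HepG2 (1814 to 2888), 1903 in Huh1, 1087 in Huh7, 680 in HLE, 74.6 in Hep3b, and lay between 4.68 and 7.09 FPKM in SK-HEP1. The highest line mean was 399 times the lowest. In HepG2 it ranked between 6 and 21 among all gene rows of a library, and in SK-HEP1 between 6760 and 8662. The 4 highest lines overlapped their neighbours in this order, while Hep3b and SK-HEP1 stood apart from every other line.

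The matricellular genes had other orders. SPARC, a collagen-binding glycoprotein, averaged 815 FPKM in HLE and 626 in SK-HEP1, with overlapping ranges, 99.8 in Huh7, 21.0 in HepG2, and stayed under 1 FPKM in all 8 libraries of Huh1 and Hep3b. THBS1, thrombospondin 1, which can activate latent TGF-beta, averaged 912 FPKM in HLE (644 to 1285), above all others. Huh1 (127), Huh7 (110), SK-HEP1 (103) and HepG2 (69.4) overlapped in FPKM of THBS1, and Hep3b had 4.48. TNC, tenascin C, a glycoprotein of remodelling tissue, averaged 116 FPKM in SK-HEP1 (78.5 to 154), 4.58 in HLE and 1.90 in Huh1, and was under 1 FPKM in all libraries of Hep3b, HepG2 and Huh7. Its lines did not overlap between neighbours in the order. TGFBI, a secreted protein named for its induction by TGF-beta, averaged between 198 FPKM in Hep3b and 637 in Huh1 in 5 lines whose ranges overlapped from neighbour to neighbour. In HLE it averaged 29.7 FPKM, between 1.96 and 99.8.

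The adaptor MATN3, matrilin 3, best known from cartilage, was low in all lines. It averaged 15.6 FPKM in Huh7, 11.6 in Huh1, 7.64 in HepG2, 5.40 in HLE, 1.77 in SK-HEP1 and 1.15 in Hep3b, and neighbours overlapped throughout. The proteoglycan genes were at their highest mean in Huh7. BGN, the small leucine-rich proteoglycan biglycan, averaged 27.7 FPKM there and 2.07 in HepG2, and under 0.5 FPKM in each other line. VCAN, the large chondroitin sulphate proteoglycan versican, averaged 23.7 FPKM in Huh7, 2.80 in HepG2 and 1.07 in HLE. FBN1, the microfibril protein fibrillin 1, averaged 28.1 FPKM in Hep3b (23.7 to 37.3), 8.53 in Huh7 and 1.12 in HLE, and under 0.5 FPKM in the remaining lines.

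**Figure D1:**
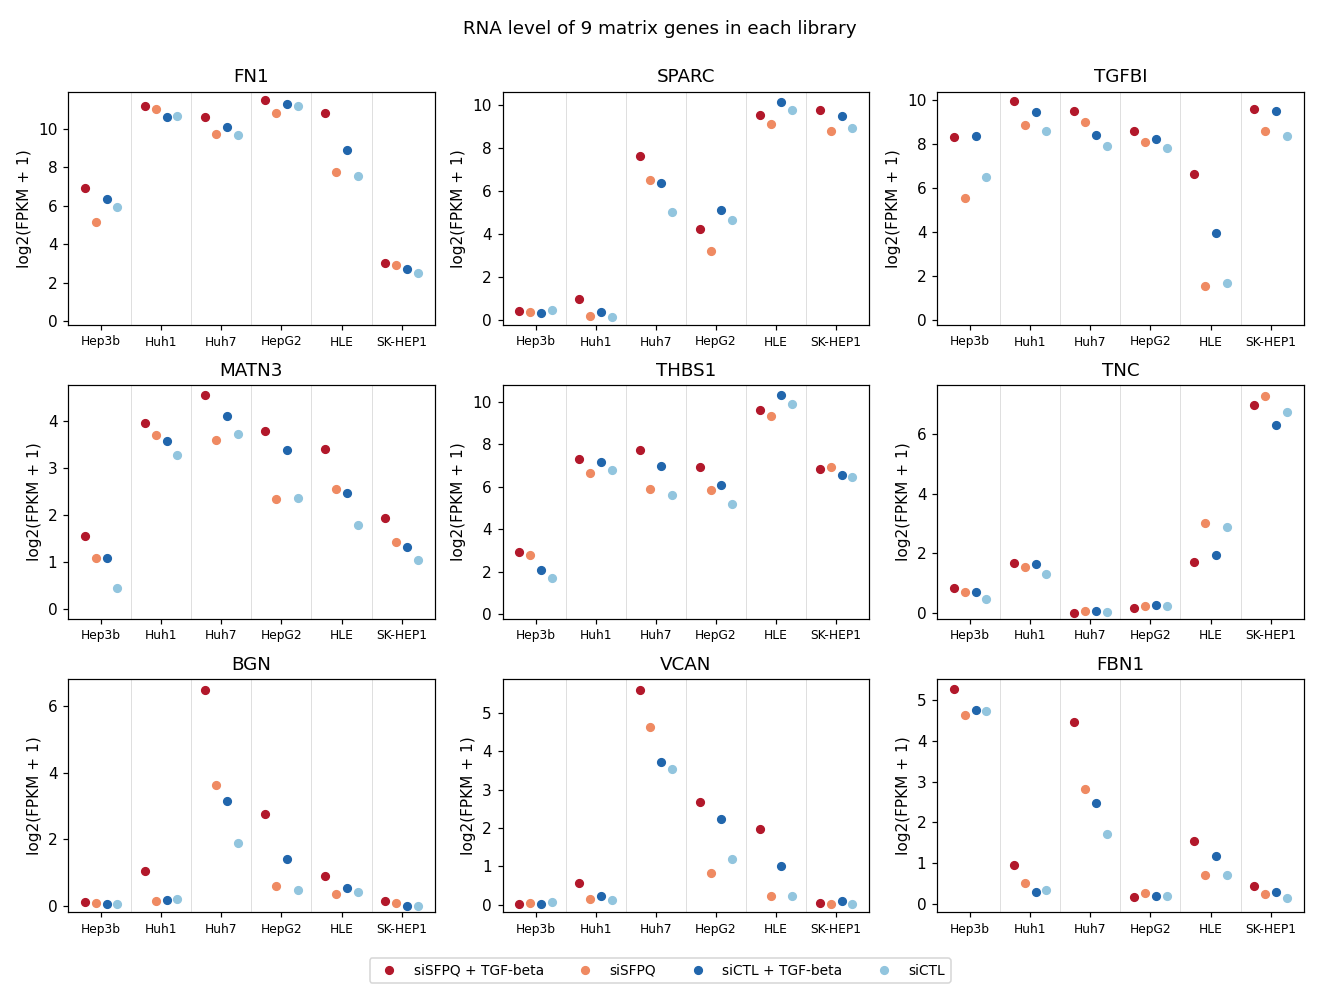
RNA level of each of the 9 genes, as log2(FPKM + 1) on the vertical axis, in the 4 libraries of each of 6 lines on the horizontal axis; each point is 1 library and colours give the group. FN1 in SK-HEP1 stays between 4.68 and 7.09 FPKM while TNC there reaches 154 FPKM, and BGN in Huh7 has 1 library at 89.0 FPKM, that with siSFPQ and TGF-beta.

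The first comparison asks how the genes respond to TGF-beta once SFPQ is lowered. Tests of 2 groups used limma on log2(FPKM + 1) with the line as a block, and a call is an adjusted p under 0.05 over all genes tested. SPARC and MATN3 rose with TGF-beta in siSFPQ cells. Fibronectin, TGFBI and THBS1 had positive mean changes that did not pass, and TNC a negative one that did not pass.

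SPARC in siSFPQ cells had 0.378, 107 and 864 FPKM with TGF-beta (lowest, median and highest of 6 lines), against 0.148, 48.8 and 544 FPKM without it. It was higher with TGF-beta in 6 of 6 lines, with 864 against 439.6 FPKM in SK-HEP1, 742 against 544 in HLE, 196 against 89.4 in Huh7 and 17.95 against 8.18 in HepG2. The log2 change was 0.74 (SE 0.14, limma adjusted p = 0.0340). In Hep3b and Huh1 SPARC was under 1 FPKM in both groups. MATN3 had 1.95, 11.3 and 22.6 FPKM with TGF-beta, against 1.12, 4.48 and 12.1 FPKM without it. It was higher in 6 of 6 lines, by 3.16 times in HepG2 (12.8 against 4.06 FPKM), 2.03 times in Huh7, 1.99 times in HLE, 1.73 times in Hep3b, 1.65 times in SK-HEP1 and 1.22 times in Huh1. The log2 change was 0.75 (SE 0.15, limma adjusted p = 0.0345). The libraries of the groups overlap for both genes when lines are mixed, and separate only line by line.

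FN1 in siSFPQ cells had 7.09, 1710.2 and 2888 FPKM with TGF-beta, against 6.65, 531 and 2110.4 FPKM without it. It was higher in 6 of 6 lines, but by very different amounts: 8.50 times in HLE (1836 against 216 FPKM), 3.48 times in Hep3b (121 against 34.9), 1.87 times in Huh7, 1.59 times in HepG2, 1.10 times in Huh1 and 1.07 times in SK-HEP1. Its log2 change of 1.11 (SE 0.37, limma adjusted p = 0.101) did not pass. TGFBI had 99.8, 557 and 996 FPKM with TGF-beta, against 1.96, 332 and 517 FPKM without it. HLE had 99.8 against 1.96 FPKM, a ratio of 50.9, and Hep3b 320 against 46.1, a ratio of 6.93, while the other lines had ratios of 1.40 to 2.13. The log2 change of TGFBI was 1.82 (SE 0.58, limma adjusted p = 0.0919). So the mean changes of FN1 and TGFBI were larger than those of SPARC and MATN3, and their spread between lines was larger as well.

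THBS1 had 6.60, 139 and 783 FPKM with TGF-beta in siSFPQ cells, against 5.90, 78.3 and 644 FPKM without it. It was higher in 5 of 6 lines, most in Huh7 (208 against 58.9 FPKM) and HepG2 (119.7 against 55.6), and slightly lower in SK-HEP1 (112 against 121). The log2 change was 0.65 (SE 0.23, limma adjusted p = 0.115). TNC had 0, 1.47 and 125 FPKM with TGF-beta, against 0.0453, 1.26 and 154 FPKM without it, with a log2 change of -0.25 (SE 0.18, limma adjusted p = 0.403). It was lower in HLE (2.22 against 7.01 FPKM) and in SK-HEP1 (125 against 154), the lines with most of its RNA, and higher in Huh1 (2.17 against 1.91).

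The proteoglycans BGN and VCAN and the microfibril gene FBN1 were not tested here, since only 4, 4 and 5 of the 12 libraries reached 1 FPKM and the test asked for 6. BGN in siSFPQ cells was at 89.0 FPKM with TGF-beta in Huh7, against 11.2 without, at 5.69 against 0.515 in HepG2 and at 1.05 against 0.0993 in Huh1. VCAN was at 47.9 against 23.9 FPKM in Huh7, 5.41 against 0.780 in HepG2 and 2.94 against 0.163 in HLE. FBN1 was at 21.2 against 6.07 FPKM in Huh7, 37.3 against 23.7 in Hep3b and 1.91 against 0.632 in HLE. BGN was higher with TGF-beta in 6 of 6 lines, and VCAN and FBN1 each in 5 of 6, with VCAN lower in Hep3b (0.0188 against 0.0350 FPKM) and FBN1 lower in HepG2 (0.121 against 0.213). The Huh7 siSFPQ + TGF-beta library, which holds the highest BGN and VCAN values, is also the shallowest, and the part of depth was not tested. Fitted without the filter, the log2 changes were 1.09 (SE 0.40) for BGN, 0.83 (SE 0.29) for VCAN and 0.60 (SE 0.21) for FBN1, with limma adjusted p of 0.206, 0.190 and 0.194.

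In all, 2 of the 6 members tested were called and both were higher, where 5.13% of 11886 genes were called in either direction, 2.25% as higher and 2.88% as lower. The median log2 change of the 6 was 0.75, beside -0.06 over all genes tested. Neither call held in every leave-one-out fit. SPARC had an adjusted p of 0.0627 to 0.0812 and MATN3 of 0.0602 to 0.0836 on leaving out Huh1, Huh7, HepG2, HLE or SK-HEP1, and both were called without Hep3b (0.0177 for SPARC and 0.0448 for MATN3). The log2 change stayed between 0.67 and 0.88 for SPARC and between 0.61 and 0.85 for MATN3 in these fits.

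**Figure D2:**
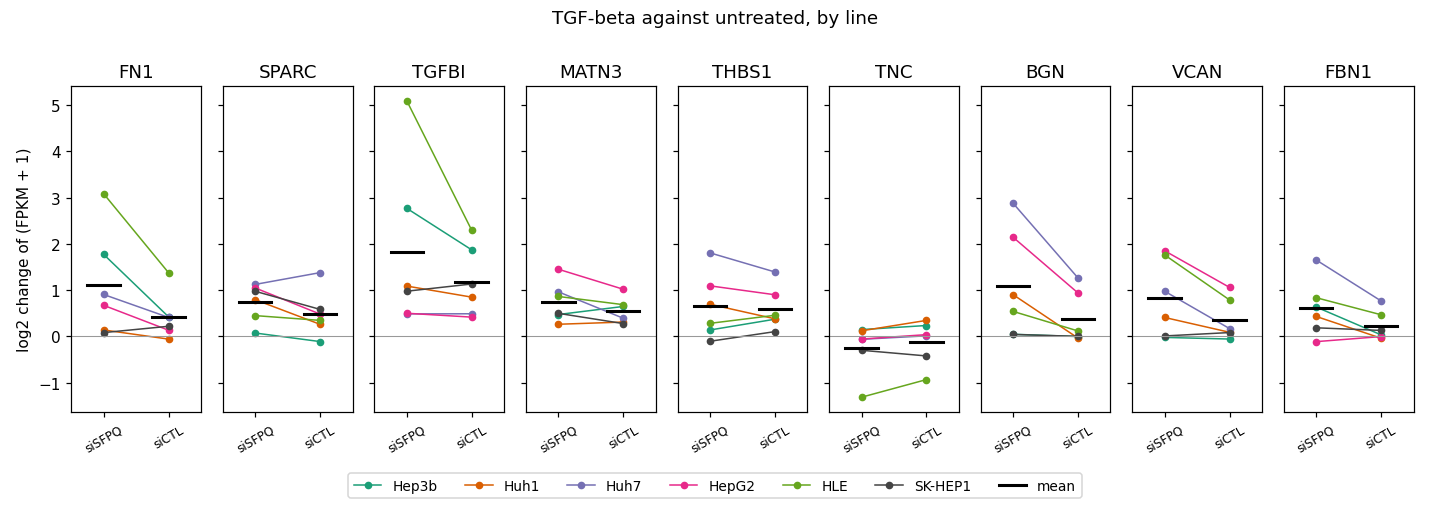
Change with TGF-beta as a log2 difference of FPKM + 1 on the vertical axis, in siSFPQ cells and in siCTL cells on the horizontal axis, for each of the 9 genes; each point is 1 line, lines join the same cell line, and black bars are means of 6 lines. HLE stands highest for FN1 (3.08 in siSFPQ and 1.38 in siCTL cells) and TGFBI (5.09 and 2.29), and lowest for TNC (-1.31 and -0.93).

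In siCTL cells the same treatment gave no call among the members. The feedback genes SMAD7, SKIL and PMEPA1, used as checks of the TGF-beta response, did not pass here either (limma adjusted p = 0.150, 0.105 and 0.105). Each was higher in 6 of 6 lines, with log2 changes of 0.84, 1.05 and 1.74. In siSFPQ cells SKIL (limma adjusted p = 0.0284) and PMEPA1 (limma adjusted p = 0.0340) passed and SMAD7 (limma adjusted p = 0.0542) did not. MATN3 again was higher in 6 of 6 lines, with a log2 change of 0.55 (SE 0.10, limma adjusted p = 0.0828), as was TGFBI, with 1.17 (SE 0.24, limma adjusted p = 0.0929). In HLE, TGFBI was at 14.8 FPKM with TGF-beta, against 2.23 without it, in Hep3b at 335 against 90.8 and in SK-HEP1 at 728 against 332. THBS1 was higher in 6 of 6 lines as well, with a log2 change of 0.60 (SE 0.15, limma adjusted p = 0.130), led by Huh7 with 125 against 47.0 FPKM.

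SPARC had a log2 change of 0.49 (SE 0.16, limma adjusted p = 0.204), and its values in Huh7 were 82.7 FPKM with TGF-beta and 31.2 without. FN1 had 0.42 (SE 0.16, limma adjusted p = 0.264), with 484 against 186 FPKM in HLE and 1556 against 1621 in Huh1. TNC had -0.12 (SE 0.16, limma adjusted p = 0.732), and was lower in HLE (2.82 against 6.30 FPKM) and SK-HEP1 (78.5 against 106). BGN, VCAN and FBN1 were not tested, with 3, 5 and 5 of 12 libraries at 1 FPKM. In Huh7, BGN was at 7.94 against 2.72 FPKM, and in HepG2 VCAN was at 3.73 against 1.27.

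By limma, 0 of the 6 members tested were called, where 0.0986% of 12166 genes were (0.0658% higher and 0.0329% lower), and 5 of the 6, all but TNC, had an unadjusted p under 0.05 and a positive change. Over all genes 1910 had an unadjusted p under 0.05. The median change of the 6 was 0.52, beside -0.03 over all genes.

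Whether the response differs between siSFPQ and siCTL cells was tested as an interaction over the 6 lines, the TGF-beta change in siSFPQ cells minus that in siCTL cells. All 9 members were tested in these 24 libraries, and none was called by limma, where 0.252% of 13496 genes were (0.222% higher and 0.0296% lower). FN1, SPARC, BGN, VCAN and FBN1 had an unadjusted p under 0.05, as had 1688 of all genes, and all 5 had positive values. The checks of the TGF-beta response, all feedback genes of SMAD signalling, had interactions of 0.60 for SKIL (SE 0.09, limma adjusted p = 0.0333, but 0.0521 with a pseudocount of 0.1, 0.0623 with quantile normalization, 0.133 with no filter and 0.0256 to 0.130 on leaving out a line, the call holding only without Huh7), 0.87 for PMEPA1 (SE 0.17, limma adjusted p = 0.115) and 0.28 for SMAD7 (SE 0.08, limma adjusted p = 0.249).

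BGN had the largest interaction of the members, 0.71 (SE 0.20, limma adjusted p = 0.230), positive in 6 of 6 lines but at 0.04 and 0.05 in SK-HEP1 and Hep3b, where it is hardly expressed: in SK-HEP1 it is listed at 0 in both siCTL libraries. BGN passed the filter through 7 of 24 libraries, 4 of them from Huh7. FN1 had 0.69 (SE 0.23, limma adjusted p = 0.299), with 1.71 in HLE and 1.35 in Hep3b, 0.20 to 0.54 in Huh1, Huh7 and HepG2, and -0.14 in SK-HEP1. In HLE this stands for the ratio of 8.50 in siSFPQ cells beside 2.60 in siCTL cells, and in Hep3b for 3.48 beside 1.35. TGFBI had a mean of 0.64 (SE 0.37, limma adjusted p = 0.519) that was 2.79 in HLE, 0.90 in Hep3b and between -0.16 and 0.24 in the other lines.

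VCAN had an interaction of 0.48 (SE 0.15, limma adjusted p = 0.260), with 0.97 in HLE, 0.81 in Huh7 and 0.79 in HepG2. In HLE without TGF-beta VCAN was at 0.163 FPKM in siSFPQ and 0.161 in siCTL cells, where the added 1 FPKM weighs on the change. FBN1 had 0.38 (SE 0.13, limma adjusted p = 0.293) and was positive in 5 of 6 lines, most in Huh7 at 0.88. VCAN and FBN1 passed the filter through 9 and 10 of 24 libraries. SPARC had 0.25 (SE 0.10, limma adjusted p = 0.351), MATN3 0.20 (SE 0.10, limma adjusted p = 0.464), THBS1 0.05 (SE 0.10, limma adjusted p = 0.862) and TNC -0.12 (SE 0.09, limma adjusted p = 0.572). The median over the 9 was 0.38, beside -0.03 over all genes tested. Leaving out HLE brought TGFBI to 0.21 and FN1 to 0.49.

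**Figure D3:**
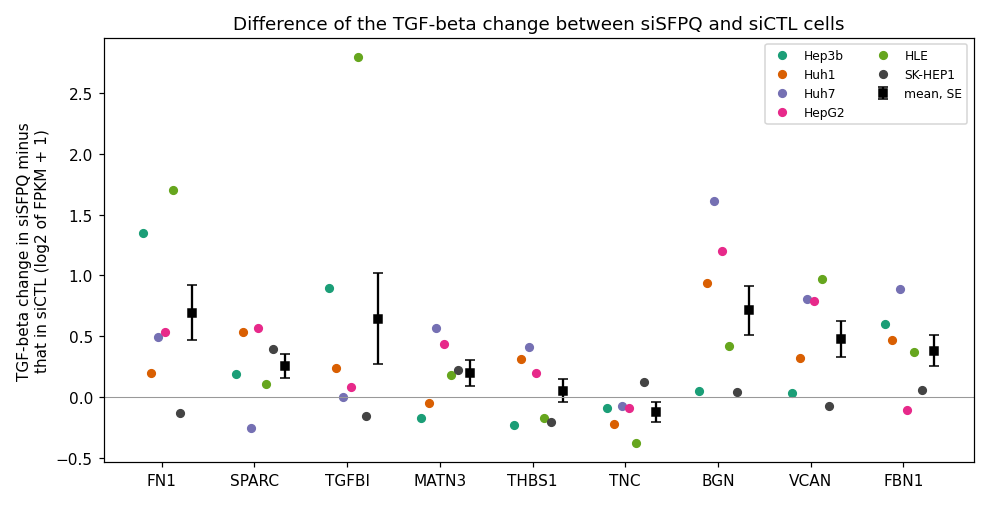
Difference of the TGF-beta change, siSFPQ minus siCTL, as a log2 value of FPKM + 1 on the vertical axis for the 9 genes on the horizontal axis; coloured points are the 6 lines and the black square is the fitted mean with its standard error. HLE lies at 2.79 for TGFBI and 1.71 for FN1, and all 6 points of BGN lie above 0, between 0.04 and 1.61.

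The next comparison asks how loss of SFPQ changes the genes in cells that receive TGF-beta. It shares its siSFPQ + TGF-beta libraries with the first comparison. MATN3 and FN1 were higher in siSFPQ + TGF-beta than in siCTL + TGF-beta libraries of every line. MATN3 was at 1.95, 11.3 and 22.6 FPKM (lowest, median and highest) in siSFPQ + TGF-beta libraries, against 1.14, 7.02 and 16.3 FPKM in siCTL + TGF-beta libraries. By line it was 2.13 times the siCTL + TGF-beta level in HLE (9.71 against 4.55 FPKM), 1.90 times in SK-HEP1, 1.70 times in Hep3b, 1.39 times in Huh7, 1.35 times in HepG2 and 1.34 times in Huh1. Its log2 change was 0.54 (SE 0.10, limma adjusted p = 0.00690). FN1 was at 1836 against 484 FPKM in HLE, 121 against 81.5 in Hep3b, 2322 against 1556 in Huh1, 1585 against 1093 in Huh7, 7.09 against 5.60 in SK-HEP1 and 2888 against 2552 in HepG2. Its log2 change was 0.68 (SE 0.20, limma adjusted p = 0.0294).

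The other members did not pass. TGFBI had a log2 change of 0.77 (SE 0.31, limma adjusted p = 0.0844), with 99.8 against 14.8 FPKM in HLE, 724 against 339 in Huh7 and 320 against 335 in Hep3b. VCAN had 0.60 (SE 0.23, limma adjusted p = 0.0776) and FBN1 0.60 (SE 0.23, limma adjusted p = 0.0754). Each was tested because 6 of 12 libraries reached 1 FPKM, and was fitted on all 12. The fits so include lines near 0, such as VCAN in SK-HEP1 (0.0203 against 0.0649 FPKM) and FBN1 in HepG2 (0.121 against 0.149). Huh7 led both, with 47.9 against 12.2 FPKM of VCAN and 21.2 against 4.57 of FBN1. THBS1 had 0.36 (SE 0.19, limma adjusted p = 0.176), being lower in HLE (783 against 1285 FPKM) and higher in the other 5 lines. Without HLE, its only lower line, it was called (0.57, limma adjusted p = 0.0150). Leaving out any other line gave no call, with limma adjusted p up to 0.362. SPARC had 0.12 (SE 0.24, limma adjusted p = 0.718), with 196 against 82.7 FPKM in Huh7 but 742 against 1105 in HLE and 17.95 against 33.9 in HepG2. TNC had 0.07 (SE 0.12, limma adjusted p = 0.667). BGN was not tested, and had 89.0 against 7.94 FPKM in Huh7 and 5.69 against 1.67 in HepG2.

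Of the 8 members tested 2 were called, both higher, where 30.3% of 12023 genes were called, 8.47% as higher and 21.8% as lower. A count of 2 of 8 is near the share called in either direction. The median change was 0.57, beside -0.09 over all genes. MATN3 was called on leaving out any line (adjusted p of 0.0139 to 0.0178), and FN1 was not called without Huh1 (adjusted p = 0.0532) or Huh7 (adjusted p = 0.0572), while without HLE its change was 0.43 (adjusted p = 0.0115). The calls over all genes were 1018 higher and 2621 lower, and with libraries scaled by median ratios 1772 higher and 1566 lower. For TGF-beta in siSFPQ cells they were 268 higher and 342 lower, and 292 and 140 with that scaling.

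Without TGF-beta, knockdown gave no call among the members. MATN3 was nearest, with a log2 change of 0.35 (SE 0.14, limma adjusted p = 0.0936): it was at 4.89 against 2.45 FPKM in HLE, 12.1 against 8.68 in Huh1 and 1.12 against 0.369 in Hep3b, and at 11.1 against 12.2 in Huh7. TNC had 0.20 (SE 0.10, limma adjusted p = 0.195), led by SK-HEP1 with 154 against 106 FPKM. THBS1 had 0.31 (SE 0.18, limma adjusted p = 0.251), with 5.90 against 2.24 FPKM in Hep3b and 644 against 937 in HLE.

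FN1 had -0.01 (SE 0.15, limma adjusted p = 0.962), TGFBI 0.13 (SE 0.21, limma adjusted p = 0.676) and SPARC -0.13 (SE 0.29, limma adjusted p = 0.773), each with lines that moved in opposite directions. In Huh7, SPARC was at 89.4 against 31.2 FPKM and TGFBI at 517 against 241. In HepG2, SPARC was at 8.18 against 24.0 FPKM, and in Hep3b TGFBI was at 46.1 against 90.8 and FN1 at 34.9 against 60.6. BGN, VCAN and FBN1, not tested with 2, 3 and 4 of 12 libraries at 1 FPKM, were all higher in Huh7, at 11.2 against 2.72, 23.9 against 10.7 and 6.07 against 2.27 FPKM. By limma 0 of the 6 members tested were called and 1, MATN3, had an unadjusted p under 0.05, where 21.7% of 12013 genes were called (6.69% higher and 15% lower) and 4484 had such a p. The median change was 0.17, beside -0.07 over all genes. Over all genes 804 were called higher and 1804 lower, against 1267 and 1281 with median ratio scaling, under which FN1 had a change of 0.09.

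**Figure D4:**
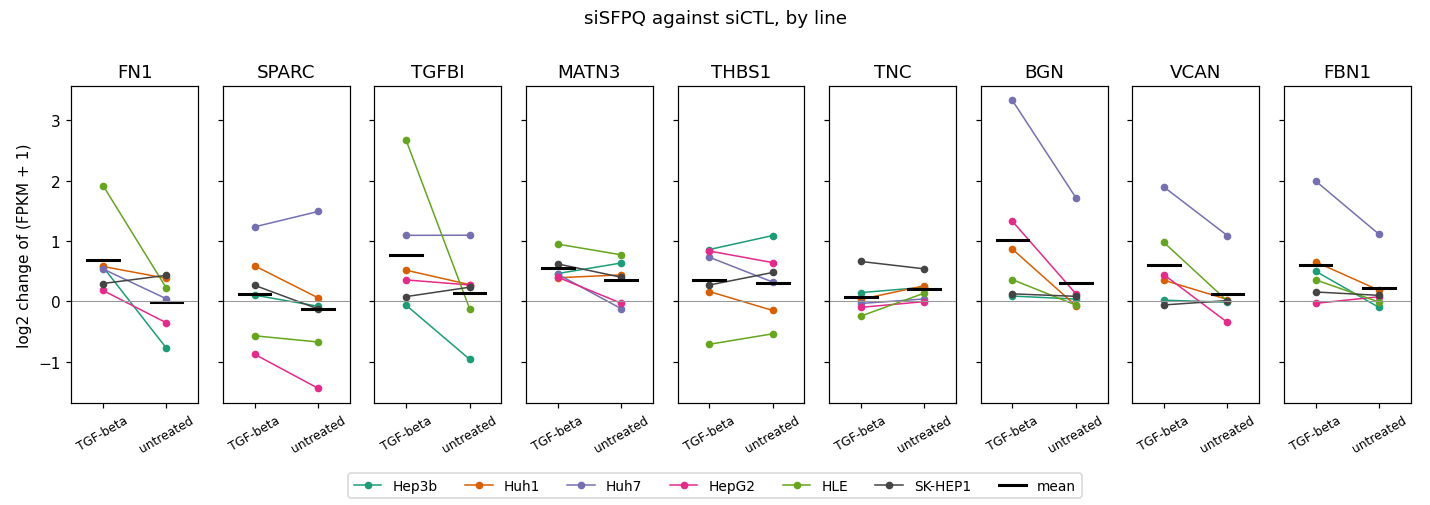
Change with SFPQ knockdown, siSFPQ against siCTL, as a log2 difference of FPKM + 1 on the vertical axis, in cells with TGF-beta and in untreated cells on the horizontal axis, for the 9 genes; each point is 1 line and black bars are means of 6 lines. Huh7 lies highest for SPARC (1.23 with TGF-beta and 1.49 untreated), BGN (3.33 and 1.72) and FBN1 (2.00 and 1.11), and HLE for TGFBI with TGF-beta (2.67).

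Within lines some members moved together. After the mean of its line was taken from each library, FN1 and TGFBI correlated at 0.92 over 24 libraries, BGN with FBN1 at 0.83 and with VCAN at 0.82, while TNC correlated at -0.58 with TGFBI and -0.55 with FN1. These are descriptions over libraries that share lines and treatments. Without that step FN1 and TGFBI correlated at 0.07 and FN1 and TNC at -0.79. FN1 and TGFBI varied most in HLE, where the highest library was 9.87 and 50.9 times the lowest, and in Hep3b, at 3.48 and 7.26 times. BGN ran from 2.72 to 89.0 FPKM in Huh7 and averaged under 0.5 FPKM in HLE, Huh1, Hep3b and SK-HEP1. How far single lines set these correlations was not tested. Among the 12492 genes whose log2 level averaged 1 or more, those most like a member within lines were PTK7 (0.93) and TGFBI for FN1, PLEK2 (0.96) and FOXP1 (0.95) for TGFBI, FAM160B2 (0.94) and TAX1BP3 (0.91) for MATN3, and FAM198B (0.82) and ARHGEF10L (0.82) for SPARC. For THBS1 they were PLXNA2 (0.89) and CNN2 (0.86), for TNC KIT (0.86) and SFTA1P (0.84), for VCAN NKD1 (0.86) and FXYD5 (0.86), and for FBN1 RASL12 (0.90) and CRISPLD2 (0.89).

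Other matrix glycoproteins and proteoglycans formed a list of 71 genes. With TGF-beta in siSFPQ cells 4 of 36 tested rose and 0 fell, with a median change of 0.17 over the list, where 5.13% of all genes were called, 2.25% as higher. The growth factor binding protein IGFBP7 rose by 1.38 on the log2 scale (SE 0.29, limma adjusted p = 0.0401), the matricellular CTGF by 0.92 (SE 0.17, limma adjusted p = 0.0340) and the microfibril gene MFAP2 by 0.75 (SE 0.14, limma adjusted p = 0.0342). None of these 4 calls held in every leave-one-line-out fit: adjusted p was 0.0524 to 0.0966 for IGFBP7, lost whichever line was left out, 0.0382 to 0.0726 for CTGF and 0.0433 to 0.0781 for MFAP2. In siCTL cells 0 of 37 passed by limma, with 8 at an unadjusted p under 0.05. Of 12166 genes, 759 that rose and 1151 that fell had such a p, and 0.0986% were called. With knockdown in TGF-beta-treated cells 5 of 36 rose and 2 fell, where 8.47% of all genes were called higher and 21.8% lower. The changes were led by the matricellular CYR61 (1.36, SE 0.23, limma adjusted p = 0.00497) and CTGF (1.07, SE 0.13, limma adjusted p = 0.00241), while the basement membrane proteoglycan HSPG2, perlecan, fell (-0.85, SE 0.19, limma adjusted p = 0.0122), and these 3 calls held whichever line was left out. Without TGF-beta 2 of 37 rose and 3 fell, beside 6.69% and 15% of all genes, among them CYR61 (1.19, limma adjusted p = 0.00643), HSPG2 (-1.02, limma adjusted p = 0.0269) and IGFBP7 (-0.76, limma adjusted p = 0.0329). Of these, CYR61 was called whichever line was left out, while HSPG2 reached an adjusted p of 0.0726 and IGFBP7 of 0.0898. In the interaction 0 of 45 passed by limma, with 10 at an unadjusted p under 0.05. Of 13496 genes, 707 with a positive and 981 with a negative value had such a p, and 0.252% were called.

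Cell surface receptors of these proteins formed a list of 20 genes. The list also counts CAV1, a membrane scaffold protein that is not itself a receptor. With TGF-beta in siSFPQ cells 3 of 13 tested rose and 0 fell, where 5.13% of all genes were called, 2.25% as higher. The 3 were the fibronectin receptor chains ITGAV (1.23, SE 0.17, limma adjusted p = 0.0232), ITGA5 (1.09, SE 0.11, limma adjusted p = 0.00935) and ITGB1 (0.41, SE 0.09, limma adjusted p = 0.0450), each higher in 6 of 6 lines. The ITGA5 call held whichever line was left out, that of ITGAV was lost without HepG2 (adjusted p = 0.0568), and that of ITGB1 was lost in every such fit (0.0561 to 0.104). In siCTL cells 1 of 13 rose, where 0.0658% of all genes were called higher. It was ITGA5 (0.55, SE 0.07, limma adjusted p = 0.0429), a call that held only without Hep3b when single lines were left out (0.0441 to 0.159). With knockdown in TGF-beta-treated cells 5 of 13 rose and 2 fell, where 8.47% of all genes were called higher and 21.8% lower. The largest changes, called whichever line was left out, were those of ITGAV (0.96, limma adjusted p = 0.00241), ITGA5 (0.88, limma adjusted p = 0.00350) and CAV1, caveolin 1, which fell (-0.80, limma adjusted p = 0.0170). Without TGF-beta 3 of 13 rose and 1 fell, beside 6.69% and 15% of all genes. The fall was that of CAV1 (-0.85, limma adjusted p = 0.00592), called whichever line was left out, with ITGAV at 0.41 (limma adjusted p = 0.0205) and the syndecan SDC1 at 0.37 (limma adjusted p = 0.0234), whose adjusted p reached 0.0580 and 0.0631 in such fits. None of 15 passed in the interaction by limma, where 0.252% of all genes were called, with 4 at an unadjusted p under 0.05. Of 13496 genes, 707 with a positive and 981 with a negative value had such a p.

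Enzymes that cleave, cross-link or glycosylate matrix proteins formed a list of 30 genes. The list also counts ADAMTSL4, an ADAMTS-like protein that is not itself a protease. With TGF-beta in siSFPQ cells 2 of 22 tested rose and 0 fell, where 5.13% of all genes were called, 2.25% as higher. The 2 were FURIN, a proprotein convertase (1.11, SE 0.18, limma adjusted p = 0.0301), and BMP1, a metalloproteinase that processes procollagens and probiglycan (1.09, SE 0.19, limma adjusted p = 0.0340). Neither call held in every leave-one-line-out fit, with adjusted p up to 0.0722 for FURIN and 0.0789 for BMP1. BMP1 was also the only gene of the 3 lists with a called interaction, 0.36 (SE 0.05, limma adjusted p = 0.0333), positive in 6 of 6 lines. It was among 24 genes of this list tested. This call was lost whichever line was left out (adjusted p of 0.0519 to 0.132). Over all genes 0.252% were called in the interaction. In siCTL cells 0 of 22 passed by limma, with 9 at an unadjusted p under 0.05. Of 12166 genes, 759 that rose and 1151 that fell had such a p, and 0.0986% were called. With knockdown 3 of 22 rose and 3 fell with TGF-beta, near the 30.3% of all genes called, and 2 of 22 rose and 1 fell without it, below the 21.7% of all genes. CSGALNACT2, which starts chondroitin chains, fell in both (-0.90, limma adjusted p = 0.00667, and -0.85, limma adjusted p = 0.0182). With TGF-beta the transglutaminase TGM2 (0.76, limma adjusted p = 0.0212) and the sulphotransferase CHST3 (0.64, limma adjusted p = 0.0183) rose, and without it ADAMTSL4 (0.47, limma adjusted p = 0.0128) and CHST3 (0.36, limma adjusted p = 0.0304). On leaving out a line, adjusted p reached 0.0583 for TGM2, 0.0503 for CHST3 with TGF-beta and 0.0816 without it, and 0.0502 for CSGALNACT2 without TGF-beta, while ADAMTSL4, and CSGALNACT2 with TGF-beta, were called in every such fit.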

How the data were processed

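Polyadenylated RNA of 24 libraries was analysed from 1 table that is named as raw counts but holds FPKM: 99.98% of the values above 0 are not whole numbers. The FPKM were deposited by the authors, made with TopHat2 2.1.1 and Cufflinks 2.2.1 on hg19 (GRCh37), per the submitters' processing notes; annotation and options were not given in the sources used. Columns were matched to samples by name, and 2 empty columns were not used. Values under 1e-06 were set to 0, and 1624 of 23284 rows, short RNAs whose FPKM took 41.1% to 56.8% of each library's sum, were left out. limma 3.58.1 in R 4.3.3 was fitted on log2(FPKM + 1), which understates changes of low genes, with the line as a block, eBayes with trend and robust shrinkage, 5 residual degrees of freedom and Benjamini-Hochberg adjustment over all genes with at least 1 FPKM in at least 6 libraries. For the interaction, each line had its own baseline, siRNA and TGF-beta terms. The labels name the line of each library, and libraries of 1 line were treated as paired. Deviations from group means correlated at 0.878 to 0.980 within a line and at -0.517 to 0.415 between 180 pairs of other line and group. These values show that libraries of 1 line are alike and cannot tell whether they came from the same culture. FPKM carry no counts, so depth was estimated from 840 low genes with an assumed fragment length of 180 bases, is approximate and entered no test. In these bulk libraries, fewer cells that express a gene and less RNA per cell cannot be told apart. Members, lists and tests were chosen with earlier results of these data known. Named genes are the 9 members, SFPQ, SMAD7, SKIL and PMEPA1, the 2 genes most like each member within lines (for BGN not reported here), and up to 3 called genes with the largest change per list and comparison.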

Additional observations from a re-analysis of the deposited data

Results flagged for a closer look

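Of 81 sets of 6 values (9 genes in 4 groups and 5 comparisons), 17 held a line whose gap to its nearest neighbour took an unusually large share of the range. A rate of 1 in 20 would give about 4.0. That rate assumes independent sets of normally distributed values. These sets share libraries and lines, so setting 17 beside 4.0 is not a test. Levels that stood apart were those of TGFBI in HLE, at 14.8 FPKM in siCTL + TGF-beta and 2.23 in siCTL, of TNC in SK-HEP1, at 125 FPKM in siSFPQ + TGF-beta and 78.5 in siCTL + TGF-beta, and of FBN1 in Hep3b, at 25.5 FPKM in siCTL. In Huh7 they were BGN at 11.2 FPKM in siSFPQ and 2.72 in siCTL, and VCAN at 23.9 FPKM in siSFPQ and 10.7 in siCTL. Changes that stood apart in HLE were FN1 with TGF-beta in siCTL cells (1.38) and with knockdown under TGF-beta (1.92), TNC with TGF-beta in siSFPQ cells (-1.31) and the interaction of TGFBI (2.79). In Huh7 they were FBN1 with knockdown under TGF-beta (2.00) and without it (1.11), and BGN (1.72) and VCAN (1.09) with knockdown alone.

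In 4 genes, lines moved in opposite directions in both pairs of libraries, which was not tested since a line has 1 library per group. With knockdown SPARC was higher in Huh7 and lower in HepG2 and HLE, with mean log2 changes 2.25 apart. TGFBI was lower in Hep3b and higher in Huh1, Huh7, HepG2 and SK-HEP1, 1.00 apart. THBS1 was lower in HLE and higher in Hep3b, Huh7, HepG2 and SK-HEP1, 1.28 apart. With TGF-beta TNC was higher in Huh1 and lower in HLE and SK-HEP1, 0.98 apart.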

How the results depend on the processing

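With TGF-beta in siSFPQ cells the 610 calls of all genes became 15 with no filter on low values, 388 (239 higher and 149 lower) with quantile normalization, 341 with short RNAs kept, and 34 to 418 on leaving out a line; the 2 calls of members became 0 with no filter and 0 to 2 on leaving out a line. In siCTL cells the 12 calls became 0 with no filter (2199 at an unadjusted p under 0.05), 1 each with quantile normalization, short RNAs kept or plain eBayes, and 0 to 17 on leaving out a line. With knockdown the 3639 calls with TGF-beta became 2416 and the 2608 without it 1152 with no filter, and 2379 to 2989 and 1382 to 2205 on leaving out a line. Quantile normalization gave 1769 higher and 1783 lower calls with TGF-beta and 1367 and 1343 without it. Member calls with TGF-beta were 1 with no filter and 1 to 3 on leaving out a line; without TGF-beta 1, MATN3, was called with quantile normalization. The 34 interaction calls became 13 with a pseudocount of 0.1, 4 with no filter, 18 with short RNAs kept, 15 with plain eBayes, 8 to 28 on leaving out a line and 0 (203 at an unadjusted p under 0.05) with an additive line block. Without the line as replicate block, which ignores the pairing, 0 genes and 0 members were called in any comparison, while an unadjusted p under 0.05 was reached by 47, 11, 734, 633 and 6 genes in the order above.

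Leaving out Huh7 and HepG2 together, which hold the shallowest libraries and were chosen after the data were seen, gave 67, 4, 1657, 986 and 31 calls, and 0, 0, 1, 1 and 0 members. Directions that turned were all of uncalled changes: with knockdown under TGF-beta TNC was -0.0203 with a pseudocount of 0.1, SMAD7 0.12 with median ratio scaling and 0.051 with quantile normalization, and on leaving out a line SPARC ran from -0.10 to 0.32 and SMAD7 from -0.14 to 0.055. With knockdown alone FN1 was 0.089 with median ratio scaling, 0.037 with quantile normalization and 0.061 without Huh7 and HepG2, where TGFBI was -0.14, and on leaving out a line FN1 ran from -0.10 to 0.14, SPARC from -0.45 to 0.13 and TGFBI from -0.062 to 0.35. The THBS1 interaction ran from -0.022 to 0.11 and was -0.075 without Huh7 and HepG2. SPARC has no value without Huh7 and HepG2 in siSFPQ cells, where too few libraries reach 1 FPKM. Over all other single-gene values, 1142 kept direction and side of the threshold, 286 lost and 6 gained a call. The cause of these shifts was not tested.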
